A study of Mus musculus with 12 samples.

Results

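Mitochondrial ribosomal protein genes are nuclear genes whose products are imported into mitochondria and assembled there, with ribosomal RNA made from mitochondrial DNA, into the mitochondrial ribosome. This ribosome translates the few proteins that mitochondrial DNA encodes, which are core subunits of the respiratory chain complexes and of ATP synthase. Its large subunit joins amino acids into a chain and its small subunit reads the mRNA. The genes were chosen by name alone, as those with a symbol of Mrpl or Mrps, a number and at most 1 further letter, that the platform annotation gives as the only gene of a transcript cluster (the set of probes that an array reports as 1 value). Of 22180 genes so named, 71 were mitochondrial ribosomal protein genes, 43 of the large subunit (Mrpl) and 28 of the small subunit (Mrps) by symbol. The brightest cluster stood for a gene with several, and no gene was left out for a low signal.

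RNA of E14 cells, an established line of mouse embryonic stem (ES) cells, was measured on 12 Affymetrix whole-transcript arrays. The cells carried either a control hairpin (shCT) or a hairpin against LOXL2 (shLOXL2), so that every group had been transduced. Each construct was measured at day 0 without RA, read here as retinoic acid, which drives ES cells out of the pluripotent state, and at day 1 with RA, with 3 arrays per group. RA and a day of culture cannot be told apart, because there was no group at day 1 without RA. The labels do not say whether replicates were separate cultures, so p-values measure the spread between these arrays, which may be technical. Only 1 LOXL2 hairpin is named, and the labels do not say whether cells were cloned.

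Both clusters that cover Loxl2 are shared with another gene, Gm21451. Without RA they stood at 67.5% and 89.6% of the shCT level and with RA at 53.4% and 47.2%, so the second cluster was little reduced without RA. Averaged over RA states the levels were 60.0% and 65.0%, with exact two-sided permutation p of 0.005 and 0.03 over 400 relabellings, and limma adjusted p of 0.28 and 0.543 over all clusters. All 7 ES cell markers, among them Pou5f1, Nanog and Sox2, lay above the median gene. The 7 fibroblast markers, which mark feeder cells, had mean signals of 2.82 to 5.33 against 5.06 for the median gene, and none changed with RA. With RA, 5 of 7 ES cell markers fell, while 3 of 4 neural progenitor, 2 of 5 primitive endoderm and 1 of 3 trophectoderm markers rose and neither of 2 mesoderm markers changed. The mean log2 signal of the ES cell markers was 8.82 to 8.995 on arrays without RA and 8.40 to 8.58 with RA. That of the neural markers was 5.38 to 5.64 without RA and 5.79 to 6.38 with RA. Primitive endoderm markers averaged 5.92 to 7.08 in shCT without RA, and so already varied between those 3 arrays, and 6.53 to 7.31 with RA. In shLOXL2 they averaged 5.95 to 6.06 without RA and 6.82 to 6.90 with RA. Trophectoderm markers averaged 4.85 to 5.12 without RA and 5.11 to 5.32 with RA, mesoderm markers 4.75 to 5.35 and 5.07 to 5.44, and fibroblast markers 4.14 to 4.48 and 3.99 to 4.41. The part of a changed cell mixture in the results was not tested, and in such bulk samples fewer cells of a type and less RNA per cell cannot be told apart.

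The mitochondrial ribosomal protein genes mostly gave signals above those of the typical gene. Their signal, a log2 value averaged over the 12 arrays, had a median of 7.25 and quartiles of 6.54 and 8.12, and 69 of 71 lay above the median gene. The highest signals were those of Mrps18b at 8.95, Mrps15 at 8.84 and Mrpl10 at 8.76, and the lowest those of Mrps14 at 5.14, Mrpl27 at 4.75 and Mrps36 at 3.94. Probes differ in how brightly they bind, so this order of signals is not an order of RNA amounts. Mrps36, whose product is also known as a component of the 2-oxoglutarate dehydrogenase complex, read 3.63 to 4.22 over the 12 arrays, and Mrpl27 read 4.46 to 5.07. The spread between replicate arrays was close to that of other genes. The pooled SD was 0.18 at the median member, 0.06 for Mrps15 and 0.37 for Mrpl58, against 0.20 at the median of all genes.

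Arrays differed in the level of the mitochondrial ribosomal protein genes as a whole, within groups as well as between them. The median deviation of the 71 genes from their own means was 0.14, 0.22 and −0.05 on shCT arrays 1, 2 and 3 without RA, and 0.02, −0.07 and −0.23 with RA. On the shLOXL2 arrays it was 0.004, 0.10 and 0.11 without RA, and −0.07, −0.04 and −0.04 with RA. The lowest array without RA and the highest with RA overlapped in shCT and did not overlap in shLOXL2. Medians over all genes moved by −0.05 to 0.05 across the same arrays. Of the 71 members, 67 were above their own mean on shCT array 2 without RA, and 4 were on shCT array 3 with RA.

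**Figure D1:**
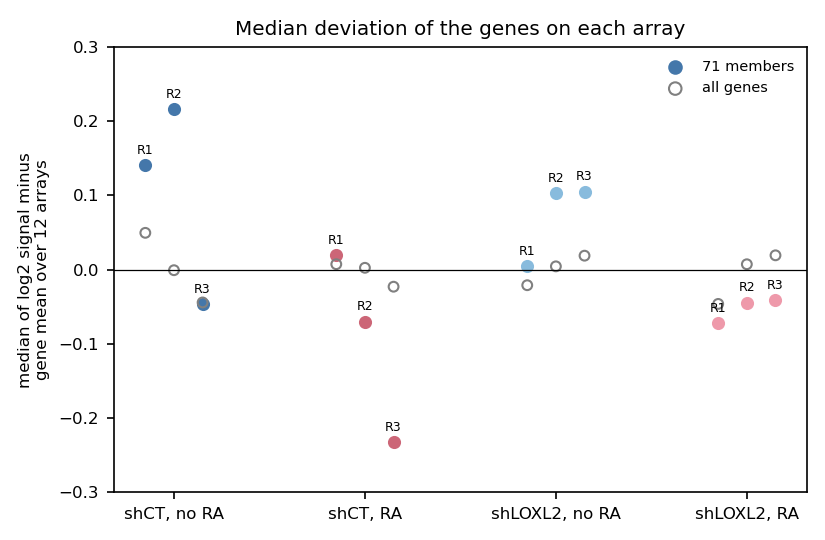
Each point is 1 array, placed by the median deviation (log2) of the 71 mitochondrial ribosomal protein genes, and of all genes, from each gene's mean over 12 arrays, by group on the x axis. Members range from −0.23 to 0.22 while all genes stay between −0.05 and 0.05.

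Members moved up and down together between replicate arrays of a group. After group means were taken out, the mean correlation between pairs of members over the 12 arrays was 0.25, against 0.14 for the 67 cytosolic ribosomal protein genes, 0.028 for the 3967 genes between the members' quartiles of signal and 0.013 for all genes. These values are a description of 12 arrays, and RNA quality was not measured here. Of the members, 46 correlated above 0.5 with the median of the members and 11 below 0. Mrps30 and Mrps12 lay highest at 0.93, and Mrps10 at −0.67, Mrpl50 at −0.63 and Mrpl47 at −0.60 lay lowest.

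**Figure D2:**
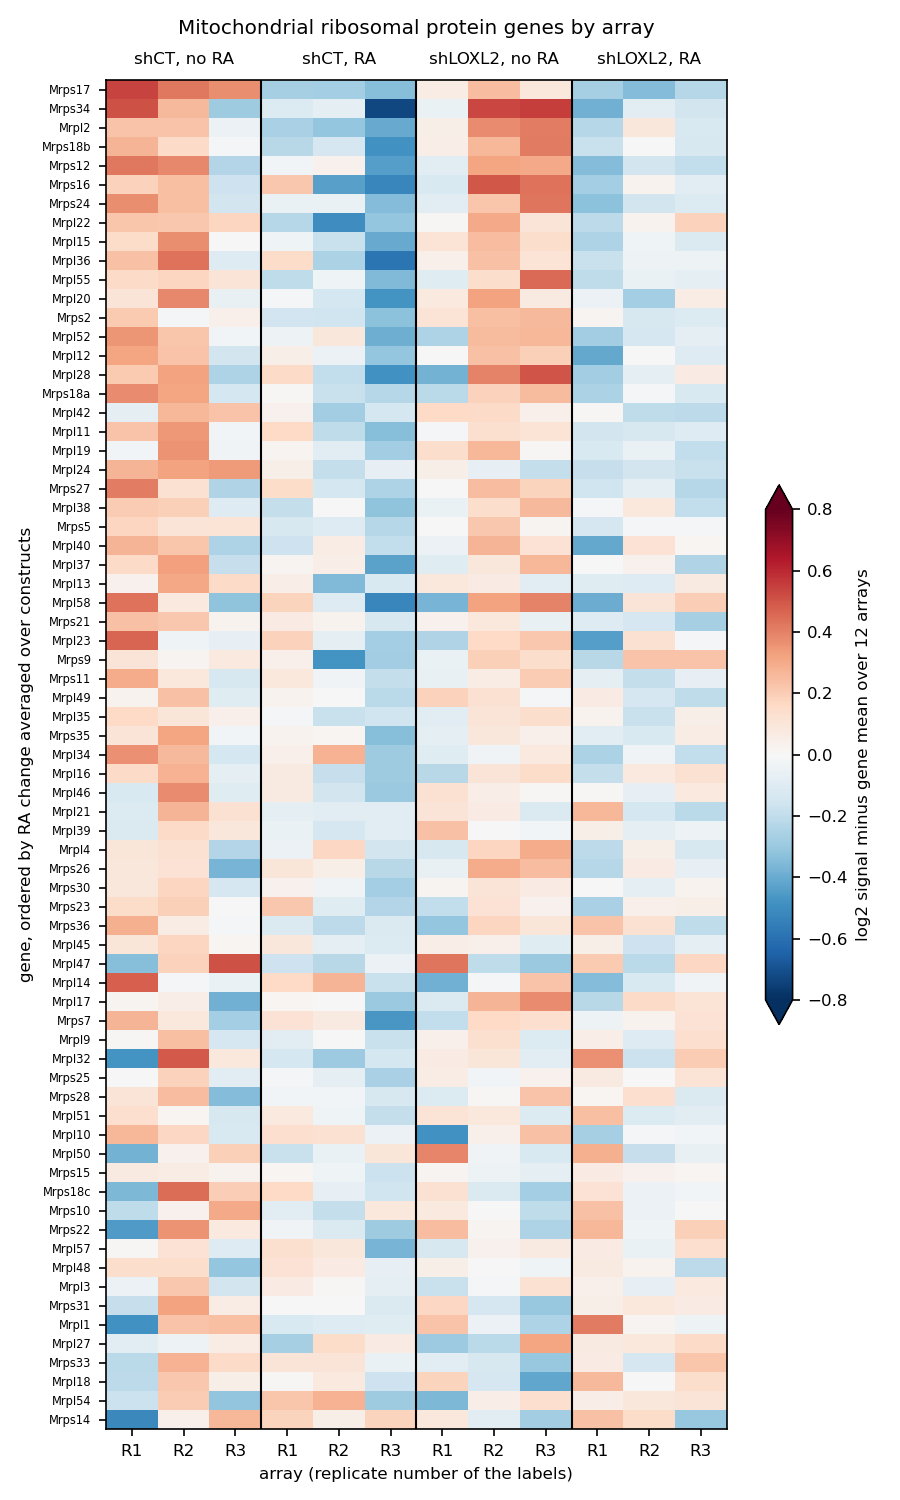
Rows are the 71 genes ordered by their RA change averaged over constructs, columns are the 12 arrays, and colour gives log2 signal minus the gene's mean. Columns without RA are mostly above the mean and columns with RA mostly below it, except shCT array 3 without RA, where 28 of 71 genes are above, and shCT array 1 with RA, where 41 are.

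The comparison of RA with no RA asks how expression changed when differentiation was induced, and averaged over both constructs it set 6 arrays against 6. Mitochondrial ribosomal protein genes leaned downward: 62 of 71 had a log2 change below 0 (87.3%, against 51.5% of all genes), with a median of −0.15 against −0.01 for all genes. Single changes were small, and 6 of 71 members passed the threshold (limma, Benjamini-Hochberg adjusted p under 0.05 over 22180 genes), each of them lower with RA. They were Mrps17, Mrps18b and Mrps2 of the small subunit and Mrpl2, Mrpl22 and Mrpl15 of the large subunit. That is 8.45% of the members, and 10.3% of all genes passed in either direction. Of all genes, 4.8% passed downward and 5.52% upward, and no member passed upward. Brighter genes passed more often. Of the 3967 genes with signals between the members' quartiles, 387 passed downward and 278 upward. Of these genes 2091 had a change below 0, and their median was −0.02. At an unadjusted p under 0.05, 22 members were lower (31.0%, against 10.6% of all genes) and 0 were higher. Among the genes of like signal 1329 of 3967 reached it in either direction. Centring each array on its median shifted the RA change of all genes by about −0.08, and the members' median then read −0.22. Under that centring 13 members passed, all lower, and 12.0% of all genes passed, 8.02% downward. After a second quantile normalization the members' median read −0.13, and 3 members passed, all lower (9.97% of all genes, 4.98% downward).

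Mrps17, a conserved small-subunit protein related to bacterial S17, showed the largest change of all members. It read 7.55, 7.43 and 7.38 on shCT arrays without RA and 6.75, 6.74 and 6.67 with RA. In shLOXL2 it read 7.07, 7.25 and 7.09 without RA and 6.74, 6.66 and 6.78 with RA. Arrays with and without RA did not overlap in either construct, and all 6 arrays with RA lay between 6.66 and 6.78. The change averaged −0.57 ± 0.08 (log2, SE, 6 arrays per RA state), which is 67.3% of the level without RA, with a limma adjusted p of 0.0003. A second cluster of Mrps17 moved alike, by −0.56 ± 0.12 (limma adjusted p of 0.021 over all clusters).

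Of the small subunit, Mrps18b and Mrps2 also fell. Mrps18b is 1 of 3 mammalian relatives of bacterial S18. Its values were 9.22, 9.10 and 8.94 in shCT without RA and 8.73, 8.82 and 8.47 with RA. In shLOXL2 they were 9.005, 9.22 and 9.37 without RA and 8.77, 8.95 and 8.82 with RA, so neither construct's groups overlapped. The average change was −0.38 ± 0.10, or 76.8% of the level without RA (limma adjusted p = 0.0241). The related Mrps18a, whose protein is known to sit in the large subunit despite its name, changed by −0.26 (limma adjusted p = 0.207), and Mrps18c by −0.01 (limma adjusted p = 0.9874). Mrps2, related to bacterial S2, had values of 7.53, 7.31 and 7.36 in shCT without RA and 7.17, 7.16 and 6.995 with RA. In shLOXL2 Mrps2 had 7.43, 7.57 and 7.58 without RA and 7.35, 7.20 and 7.22 with RA. Within each construct no array with RA reached the lowest array without it. Across constructs the RA states overlapped, at 7.35 in shLOXL2 with RA and 7.31 in shCT without RA. The change of Mrps2 was −0.28 ± 0.08 (82.2%, limma adjusted p = 0.0451).

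The 3 large-subunit genes that fell encode Mrpl2, related to bacterial L2 near the peptidyl transferase centre, Mrpl22, whose bacterial relative lines the tunnel through which the new chain leaves, and Mrpl15. Mrpl2 had values of 7.38, 7.37 and 7.10 in shCT without RA and 6.88, 6.84 and 6.74 with RA. In shLOXL2 Mrpl2 had 7.19, 7.52 and 7.55 without RA and 6.92, 7.24 and 7.02 with RA, and there a single array of each state overlapped. The change of Mrpl2 averaged −0.41 ± 0.10 (75.1%, limma adjusted p = 0.0161). Mrpl22 separated the RA states in shCT, at 6.35, 6.35 and 6.31 without RA and 5.90, 5.64 and 5.82 with RA. It did not separate them in shLOXL2, at 6.14, 6.44 and 6.24 without RA and 5.92, 6.16 and 6.32 with RA. The average for Mrpl22 was −0.34 ± 0.10 (78.9%, limma adjusted p = 0.0351). Mrpl15 had 8.83, 9.05 and 8.68 in shCT without RA and 8.65, 8.51 and 8.28 with RA. In shLOXL2 Mrpl15 had 8.79, 8.93 and 8.83 without RA and 8.43, 8.65 and 8.57 with RA. Both constructs were free of overlap, though narrowly in shCT (8.65 against 8.68), and the average was −0.34 ± 0.10 (79.2%, limma adjusted p = 0.0403).

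**Figure D3:**
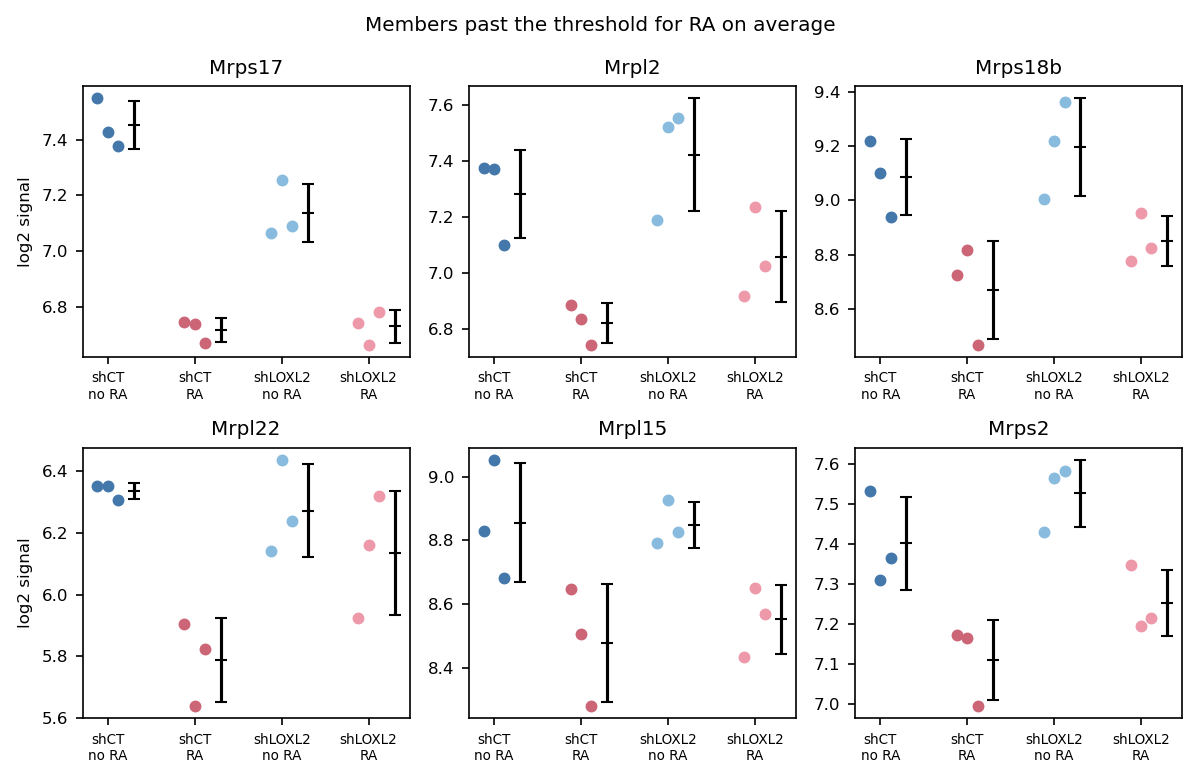
Each panel is 1 of the 6 genes past the threshold for RA on average, with log2 signal on the y axis, the 4 groups on the x axis, points for arrays and bars for the group mean ± SD (n = 3). Mrps17 falls from 7.38 to 7.55 without RA to 6.67 to 6.75 with RA in shCT, and Mrpl22 overlaps between RA states in shLOXL2.

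The calls of Mrps17 and Mrpl2 held whichever array was left out, while the others were lost in most such fits. Leaving out each of the 12 arrays in turn gave between 2 and 9 called members, and Mrps17 and Mrpl2 were called each time. Mrps18b was called in 5 of these 12 fits, Mrpl22 in 4, Mrpl15 in 3 and Mrps2 in 2 (limma adjusted p of up to 0.0669, 0.1001, 0.110 and 0.115). The count was 2 without shCT array 2 or shLOXL2 array 2 or 3 at day 0, or without shCT array 3 with RA. It was 3 without shCT array 1 at day 0, shCT array 2 with RA, or any shLOXL2 array with RA, and it was 9 without shLOXL2 array 1 at day 0. Over the same fits 7.59% to 11.7% of all genes were called.

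Members just short of the threshold were also lower with RA. Mrps34, a protein of the mitochondrial small subunit with no bacterial relative, had the second largest average change, −0.51 ± 0.16 (limma adjusted p = 0.0712). Its arrays were wide apart: 7.31, 7.07 and 6.52 in shCT without RA, 6.70, 6.73 and 6.08 with RA, 6.75, 7.34 and 7.36 in shLOXL2 without RA, and 6.42, 6.72 and 6.66 with RA. In each shCT state array 3 was the lowest. Mrpl24, Mrpl55 and Mrps24 followed with −0.24, −0.31 and −0.34 (limma adjusted p of 0.0822, 0.0783 and 0.0896). At the other end, Mrps14 had a change of 0.16 and Mrpl54 of 0.15 (limma adjusted p of 0.5527 and 0.5561). Mrps14, Mrpl54 and Mrpl27 were the 3 members with a change above 0 in both constructs.

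Grouped by symbol, which counts Mrps18a with the small subunit, the subunits looked alike, though a difference between them was not tested. In the large subunit 37 of 43 members had an average RA change below 0, with a median of −0.15, and 3 were called. In the small subunit 25 of 28 were below 0, with a median of −0.13, and 3 were called. Of all genes 4.8% were called downward and 10.3% in either direction. The 4 subunit or associated proteins of other names, Dap3, Ptcd3, Gadd45gip1 and the insertase Oxa1l, had a median of −0.05, and none was called.

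Promoter windows were at hand for 62 of the 71 members (RefSeq, GRCm38.p6, 250 bases before to 50 bases after each start, 300 bases in all). Windows of 4 of the called genes follow, as the 100 bases before the start of transcription, 5′ to 3′ on the gene's strand. They are shown because these genes fell together, and capitals mark a match to GCGCATGCG, the core of the site of NRF1, a regulator known for driving nuclear genes of mitochondrial proteins. Only Mrpl22 holds such a match in the stretch shown, and that of Mrps18b lies farther upstream. Mrpl2, which has 3 windows and none of these letters, is not shown.
Mrps17, chr5:129715397-129715496, + strand: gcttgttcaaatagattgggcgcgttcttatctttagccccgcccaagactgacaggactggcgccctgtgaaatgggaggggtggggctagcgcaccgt
Mrps18b, chr17:35916441-35916540, - strand: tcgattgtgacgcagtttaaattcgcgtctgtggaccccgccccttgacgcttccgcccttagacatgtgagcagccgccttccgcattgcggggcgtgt
Mrpl22, chr11:58171564-58171663, + strand: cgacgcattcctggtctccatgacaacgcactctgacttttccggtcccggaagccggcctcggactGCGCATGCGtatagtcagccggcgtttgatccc
Mrps2, chr2:28467966-28468065, + strand: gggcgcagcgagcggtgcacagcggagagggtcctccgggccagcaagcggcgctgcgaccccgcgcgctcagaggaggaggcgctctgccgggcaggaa

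Letters of known regulators' sites were searched on both strands of every window. The full NRF1 palindrome was in 3 of 62 members (4.84%, against 1.07% of the 27025 genes of the promoter table and 2.42% of genes at least as bright as the median gene). Its shorter form GCGCATGCG, which the palindrome contains and which was chosen after the sequences were seen, was in 7 members (11.3%, against 1.95% and 4.33%). CCGGAAGT, the site of ETS factors such as GABPA, was in 10 members (16.1%, against 4.31% and 9.28%). AAGATGGCG, the site of YY1, was in 8 (12.9%, against 1.64% and 3.81%), and in 6 of these it lay at or after the start. The E-box CACGTG, which MYC proteins can bind, was in 5 (8.06%, against 8.09% and 12.2%). A match is a run of letters and not a measured binding site.

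RA changes were then set beside these letters. The 8 members with the YY1 letters all had an average RA change below 0, from −0.34 to −0.15, with a median of −0.25, against 46 of 54 below 0 and a median of −0.10 without them. The 5 with an E-box were also all below 0, with a median of −0.30, but so were 49 of 57 without one, with a median of −0.11. The 7 with the shorter NRF1 letters were all below 0 too, with a median of −0.08. Without the NRF1 letters 47 of 55 were below 0, and their median of −0.15 was the lower one. The 10 with the ETS letters spread around 0, from −0.28 to 0.11, with 6 of 10 below 0 and a median of −0.0038, against 48 of 52 without them and a median of −0.15. Among genes at least as bright as the median gene, medians with and without the letters were −0.02 and 0.01 for YY1 and −0.03 and 0.01 for ETS. These groups are small, were seen after the values, and were not tested. Pieces of 40 bases or fewer around the match are shown for 2 members with YY1 letters, Mrps11 with an RA change of −0.15 and Mrpl36 with −0.32. They are also shown for 4 with ETS letters, Mrps22 with −0.0022, Mrpl48 with 0.0016, Mrpl27 with 0.09 and Mrpl18 with 0.11. The signs of Mrps22 and Mrpl48 changed when single arrays were left out. The members with ETS letters that are not shown were Mrpl52 at −0.28, Mrps27 at −0.24, Mrps26 at −0.10, Mrpl51 at −0.03, Mrps18c at −0.01 and Mrpl3 at 0.01. Mrps27 holds the YY1 letters as well. Capitals mark the matches on either strand, and in Mrpl36 an E-box as well. Mrpl48 has 4 windows, of which only the one shown holds the ETS letters.
Mrps11, chr7:78783008-78783047, + strand: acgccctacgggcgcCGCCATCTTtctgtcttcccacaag
Mrpl36, chr13:73330963-73331002, + strand: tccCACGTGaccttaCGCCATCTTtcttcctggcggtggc
Mrps22, chr9:98601680-98601719, - strand: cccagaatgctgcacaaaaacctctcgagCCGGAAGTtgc
Mrpl48, chr7:100583142-100583181, - strand: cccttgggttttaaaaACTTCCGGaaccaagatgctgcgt
Mrpl27, chr11:94653720-94653759, + strand: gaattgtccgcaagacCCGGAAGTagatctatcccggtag
Mrpl18, chr17:12916308-12916341, - strand: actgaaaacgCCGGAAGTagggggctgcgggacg

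Among the regulators, the 2 MYC genes fell with RA and the genes of the other searched factors did not pass the threshold. Mycn read 8.26, 8.38 and 8.08 in shCT without RA and 5.92, 6.08 and 5.59 with RA. In shLOXL2 it read 8.05, 7.82 and 7.59 without RA and 5.44, 5.76 and 5.93 with RA, so every value with RA lay below every value without it. The average change was −2.24 ± 0.12 for Mycn and −0.72 ± 0.12 for Myc (limma adjusted p = 0.0016 for Myc). Nrf1 changed by −0.02 ± 0.11, Gabpa by 0.30 ± 0.18 and Yy1 by 0.12 ± 0.09 (limma adjusted p of 0.9309, 0.3869 and 0.4908). Of the 13 regulators 5 fell and 0 rose, while 4.8% of all genes were called downward and 5.52% upward. Besides the MYC genes these were the nuclear receptor Esrrb at −0.65 ± 0.13 and the coactivators Pprc1 at −0.41 ± 0.09 and Ppargc1b at −0.46 ± 0.12.

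Other genes of mitochondrial gene expression also leaned downward with RA, and those called were again all lower. Of 27 assembly factors of the mitochondrial ribosome 8 fell, with a median of −0.22. They include the rRNA methyltransferases Mrm3 at −0.55 ± 0.11 and Mrm1 at −0.54 ± 0.11, and the RNA-binding proteins Grsf1 at −0.37 ± 0.08 and Fastkd2 at −0.54 ± 0.12 (limma adjusted p of 0.0049, 0.0070, 0.0071 and 0.0128). Mrm3 read 5.97, 5.81 and 5.46 in shCT without RA and 5.40, 5.25 and 5.07 with RA, and in shLOXL2 5.80, 6.12 and 6.07 without RA and 5.36, 5.32 and 5.53 with RA. Of 15 genes for transcription, replication and RNA handling of mitochondrial DNA 4 fell, with a median of −0.28. These were the transcription elongation factor Tefm at −0.59 ± 0.12, the helicases Twnk at −0.42 ± 0.10 and Supv3l1 at −0.38 ± 0.09, and the mRNA-stabilising Lrpprc at −0.28 ± 0.08 (limma adjusted p of 0.0061, 0.0135, 0.0162 and 0.0416). Of 16 mitochondrial tRNA synthetases 1 fell, Pars2 at −0.38 ± 0.11 (limma adjusted p = 0.0390), with a median of −0.20. None of 13 mitochondrial translation factors was called (2 at an unadjusted p under 0.05), with a median of −0.07. The 67 cytosolic ribosomal protein genes had a median of −0.07 with 54 below 0, and 1 fell. For these counts, 4.8% of all genes were called downward and 10.3% in either direction. Whether any list exceeds that share was not tested.

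**Figure D4:**
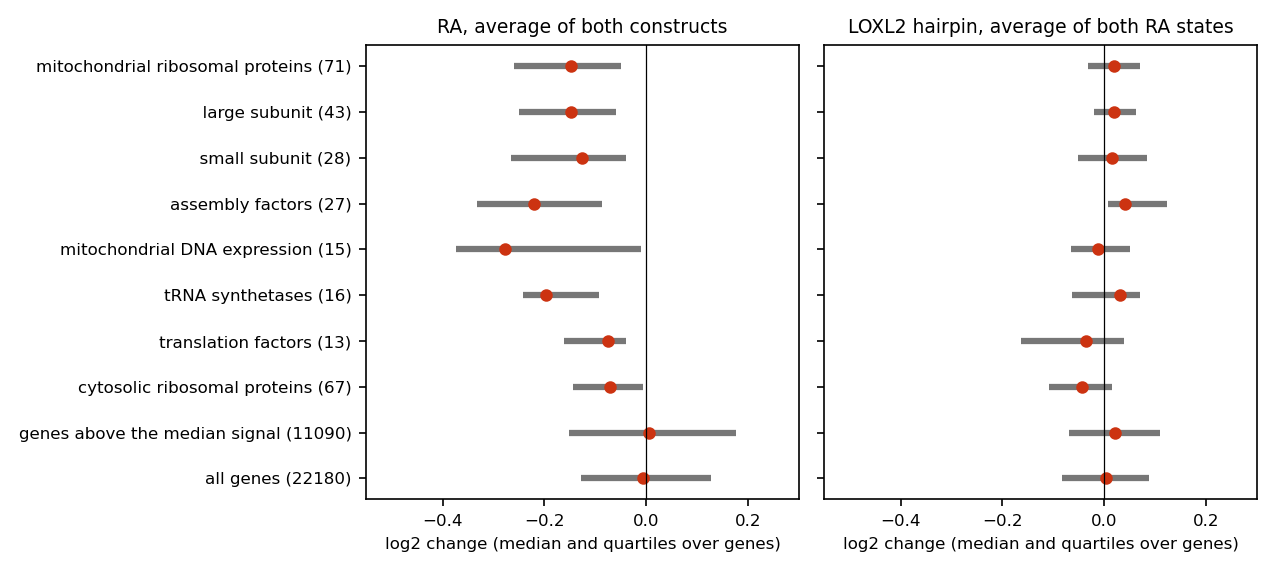
Points are the median log2 change over the genes of each list and bars run between the quartiles over genes, with each comparison in its own panel. The RA medians of assembly factors (−0.22) and of mitochondrial DNA expression (−0.28) lie below that of the 71 members (−0.15), and all genes lie at −0.01.

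Within the control hairpin alone, 64 of 71 members had an RA change below 0 (90.1%, against 49.8% of all genes), with a median of −0.18. The test called 2 of them, both lower (2.82%, against 4.25% of all genes in either direction and 2.09% downward): Mrps17 at −0.73 ± 0.11 (60.1%, limma adjusted p = 0.0016) and Mrpl22 at −0.55 ± 0.13 (68.4%, limma adjusted p = 0.0357). Of the 3967 genes with signals between the members' quartiles, 155 passed downward and 103 upward. Next by p among members were Mrpl24 at −0.38, Mrpl2 at −0.46 and Mrps18b at −0.42 (limma adjusted p of 0.0888, 0.0894 and 0.1286). In 12 members all 3 arrays with RA lay below all 3 without (16.9%, against 10.5% of all genes), and in 0 members above (10.7% of all genes). Without shCT array 3 with RA, the lowest for these genes, the median read −0.11. Leaving out each array in turn, Mrps17 was called in 12 of 12 fits and Mrpl22 in 5, with adjusted p of 0.027 to 0.153.

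In the LOXL2 hairpin 52 of 71 members were below 0 (73.2%, against 51.9% of all genes), with a median of −0.10. The limma test called 0 of them (3.46% of all genes). At an unadjusted p under 0.05 there were 7, all lower (9.86%, against 6.63% of all genes downward and 14.4% in either direction). The 5 smallest p belonged to Mrps17 at −0.41 ± 0.11, Mrpl2 at −0.36, Mrps18b at −0.35, Mrps34 at −0.55 and Mrps2 at −0.27 (limma adjusted p of 0.0667, 0.2318, 0.2611, 0.2922 and 0.2943). Deviations of same-numbered shLOXL2 arrays from group means correlated at 0.22 to 0.56, but array 3 without RA and array 2 with RA also correlated, at 0.37. With the number as a block within constructs 1 member was called, Mrps34 (limma adjusted p = 0.0205). In 17 members the arrays with RA all lay below those without (23.9%, against 9.32% of all genes). Mrpl15, Mrps2, Mrps5, Mrps17 and Mrps18b did so in both constructs (7.04% of members, against 4.33% of all genes), and 48 members were below 0 in both (67.6%, against 34.8%).

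**Figure D5:**
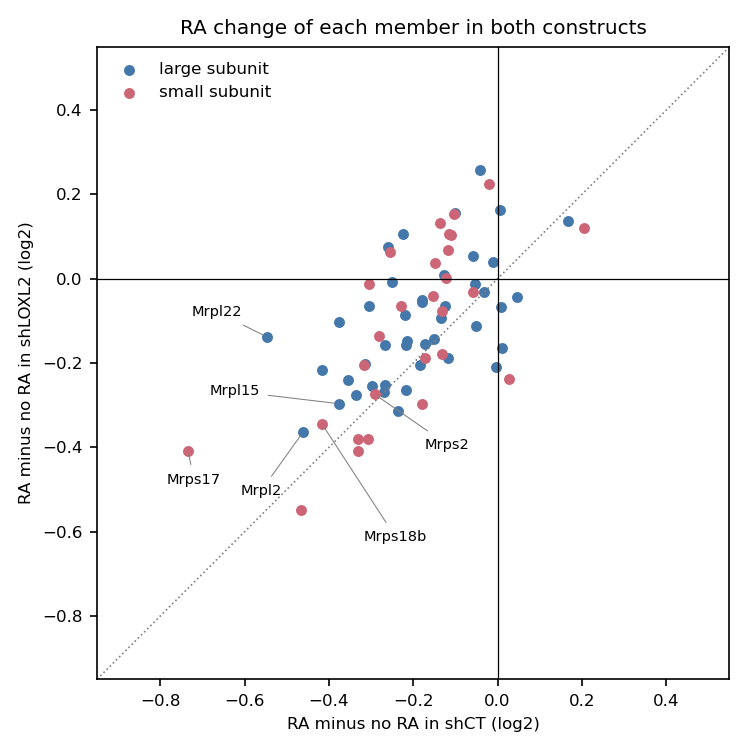
Each point is 1 of the 71 genes, with its log2 change with RA in shCT on the x axis and in shLOXL2 on the y axis, and the dotted line marks equal changes. In 48 genes both changes are below 0, and Mrps17 lies farthest left at −0.73.

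Whether the RA response depended on LOXL2 was tested as the difference between these responses. Among members 52 of 71 had the lower RA change in shCT, and the median difference (shLOXL2 minus shCT) was 0.07 (0.01 for all genes). It read 0.07 too for the 3967 genes with signals between the members' quartiles. No member passed with limma, nor did any of the 22180 genes, and 0 members had an unadjusted p under 0.05 (2.94% of all genes). The 5 smallest p were those of Mrpl22 at 0.41 ± 0.19 (p of 0.0502 from the limma fit), Mrps17 at 0.33 ± 0.16 (0.0569), Mrpl24 at 0.27, Mrps36 at 0.32 and Mrpl18 at 0.30. The 95% interval ran from −0.01 to 0.67 for Mrps17 and from −0.07 to 0.62 for Mrpl24. Over all members the intervals lay between −0.79 and 1.02, so differences of the size of the RA changes themselves remain possible. Without shCT array 3 with RA the median difference read −0.0034, so its sign rested on that array. Its size also depended on normalization, at 0.02 after a second quantile normalization and 0.12 with arrays centred (0.06 for all genes when centred).

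Knockdown without RA left no mitochondrial ribosomal protein gene past the limma threshold, nor any of the 22180 genes (0%). At an unadjusted p under 0.05 there were 2 members, both lower in shLOXL2 (2.82%, against 2.45% of all genes downward and 4.68% in either direction). Mrpl24, a large-subunit protein, stood at 8.83, 8.88 and 8.89 in shCT and 8.60, 8.49 and 8.37 in shLOXL2, a change of −0.38 ± 0.11 (limma adjusted p = 0.8058). With RA it stood at 8.61, 8.37 and 8.49 in shCT and 8.37, 8.41 and 8.38 in shLOXL2, so only the 3 shCT arrays without RA were high. Mrps17, whose arrays are given above, changed by −0.32 ± 0.11 (limma adjusted p = 0.8862), and its shLOXL2 arrays without RA lay between the shCT arrays with and without RA. Mrps33 at −0.25, Mrpl17 at 0.28 and Mrps26 at 0.22 were next by p. The median over members was −0.01, and Mrpl24, Mrps15 and Mrps17 had groups that did not overlap, each with shLOXL2 lower (4.23% of members, against 4.04% of all genes).

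With RA, knockdown again left no member called by limma, nor any of the 22180 genes (0%). At an unadjusted p under 0.05 there was 1 member (1.41%, against 2.31% of all genes upward and 4.96% in either direction). It was Mrpl22, higher in shLOXL2 by 0.34 ± 0.13 (limma adjusted p = 0.972). Mrps9 at 0.32, Mrpl2 at 0.24, Mrpl32 at 0.33 and Mrps25 at 0.18 followed. Of 71 members 49 were above 0, with a median of 0.07. Genes of like signal did the same, with 2775 of 3967 above 0 and a median of 0.08, while of all genes 11425 of 22180 were above 0 with a median of 0.01. In 6 members the shLOXL2 arrays all lay above the shCT arrays (8.45%, against 6.61% of all genes). Without shCT array 3 with RA the members' median read −0.02, so its sign rested on that array. It read 0.02 after a second quantile normalization and 0.11 with arrays centred (0.05 for all genes when centred). Averaged over RA states, limma called 0 members and 12 of 22180 genes (0.0541%). An unadjusted p under 0.05 was reached by 1 member (1.41%, against 3.36% of all genes downward and 6.72% in either direction). This was Mrpl24 at −0.24 ± 0.08 (limma adjusted p = 0.4879). Mrps17 at −0.15, Mrpl2 at 0.19, Mrps21 at −0.15 and Mrpl14 at −0.22 came next. The median was 0.02, and a second quantile normalization turned it to −0.01. The 95% intervals of all 71 members lay between −0.51 and 0.50.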

How the data were processed

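Per the labels' protocols, total RNA taken up in Trizol went through Affymetrix whole-transcript labelling. What the authors deposited is 1 log2 signal per cluster and array, and the submitters' processing notes name RMA, limma and R 3.1.1 with no role or order. Array medians over genes lay between 5.00 and 5.13. Raw scans were not used here, so the authors' normalization was taken as given, and it would hide a change shared by most genes. For arrays, their number limits the precision.

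Of 41345 clusters, 23521 had 1 gene in the platform annotation, 1814 several and 16010 none. The brightest cluster by mean over 12 arrays stood for each of 22180 genes. These values were fitted with limma 3.58.1 (R 4.3.3, statmod 1.5.0) with 1 mean per group over all 12 arrays and 7 contrasts, and adjusted by the Benjamini-Hochberg method over all genes at a threshold of 0.05, after a test on simulated data. Errors of changes are standard errors of that fit, and intervals are its 95% intervals. The Loxl2 test permuted constructs within RA states exactly. Percentages are 2 raised to the log2 change.

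The members and the lists were chosen with earlier results of these data known. Named with values were members past the threshold, the 5 with the smallest p where fewer than 3 passed, the 3 highest and 3 lowest signals, the Mrps18 genes, up to 4 called genes of each other list, and Nrf1, Gabpa, Yy1, Myc and Mycn. Mrps5, Mrps24, Mrpl55, Mrps14, Mrpl54 and the genes named for co-variation or for motif letters were chosen after their values were seen.

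Alternatives were a replicate block, a random block, another moderation, a filter on dim genes, a second quantile normalization, array centring, fits of only the groups compared, averaging over a gene's clusters, and each array left out. A replicate block within constructs and a test over all clusters were chosen after seeing the data. Same-numbered arrays of the same construct had correlated deviations from group means of 0.22 to 0.56 in shLOXL2, above the 0.1 required of each pair, but of 0.04 to 0.63 in shCT. Arrays of different numbers ranged from −0.55 to 0.54, so the number does not clearly mark a pairing. Promoter windows are from RefSeq (GRCm38.p6), and matches were exact on both strands.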

Additional observations from a re-analysis of the deposited data

How the results depend on the processing

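All calls for members were downward under each setting run, and no called change turned. Average RA changes near 0 did turn sign, in 4 members with arrays centred, 4 after a second quantile normalization (Mrpl48 in both) and 3 to 7 without single arrays. For RA on average, 6 members passed in the reported fit (10.3% of all genes, 4.8% downward). The count was 17 with a random block of construct and number (17.5%, 8.16% downward) and 14 with a replicate block within constructs (16.6%, 7.59% downward). It was 4 with the replicate number as a block across constructs (9.0%, 4.09% downward) and 13 with arrays centred (12.0%, 8.02% downward). Without dim genes it was 9 (21.3% of the 11090 genes kept, 10.8% downward). After a second quantile normalization it was 3 (9.97%, 4.98% downward), and 2 to 9 when single arrays were left out. For RA in shCT the reported count of 2 became 1 with the replicate block, 6 with the random block (9.23% of all genes, against 4.25%), 4 with the replicate block within constructs (8.12%), 4 without dim genes (10.2%), 5 with arrays centred (5.44%) and 1 when only the groups compared were fitted, and 1 to 2 when single arrays were left out. The members' median there read −0.28 with arrays centred and −0.25 to −0.11 without single arrays. For RA in shLOXL2 the count of 0 became 1 with the random block, the replicate block within constructs, the filter on dim genes or centring, and stayed 0 without single arrays. Medians without single arrays ran from −0.16 to −0.07 for RA in shLOXL2, from −0.18 to −0.11 for RA on average, from −0.10 to 0.04 for knockdown without RA, from −0.02 to 0.12 with RA, from −0.02 to 0.05 on average and from −0.0034 to 0.15 for the difference, so the last 4 changed sign. Counts for knockdown and for the difference were 0 in each setting run, replicate blocks included. The causes were not tested. With 3 arrays per group, changes of the size seen in most members lie within the spread between arrays, and Mrps36 and Mrpl27 have signals below the median gene.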

Other observations

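The array also holds 13 clusters that the annotation gives to a mitochondrial ribosomal protein gene together with another gene, and 7 such genes (Mrpl30, Mrpl33, Mrpl41, Mrpl43, Mrpl44, Mrpl53 and Mrps6) lie on shared clusters alone. Their signals cannot be assigned to either gene. In the fit over all 41345 clusters, of which 1937 passed for RA on average, 9 of the 13 were below 0 and 2 passed. These were the cluster of Nme3 and Mrps34 at −0.40 ± 0.09 (limma adjusted p = 0.031) and that of Actl6a, a chromatin remodelling subunit, and Mrpl47 at −0.49 ± 0.09 (limma adjusted p = 0.007). All 9 members with 2 clusters of their own had the same sign of the average RA change in both. For Mrps18b the changes were −0.38 and −0.47, with limma adjusted p of 0.057 and 0.089 over all clusters.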
